A study of Homo sapiens with 4 samples.

Results

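The genes of the Wnt pathway that act outside the cell, at its surface and at the end of the pathway were examined in MDA-MB-231 and in its lung-metastatic derivative. The members were taken by name: all genes named WNT, FZD, DKK or SFRP with a number, together with LRP5, LRP6, ROR1, ROR2, RNF43, ZNRF3, WIF1, CTNNB1, APC, AXIN1, AXIN2, LEF1, TCF7, TCF7L1 and TCF7L2. This gave 52 of the 57815 genes in the table of the authors. MDA-MB-231 is an established cell line of human triple-negative breast cancer. LM2-4175 was isolated from MDA-MB-231 and metastasises strongly to the lung. Both were untreated and grown in DMEM with serum, and 2 RNA-Seq libraries were made from each. The table gives 1 value per cell line from both of its libraries, so no difference has a replicate check, and the labels do not say whether the libraries came from separate cultures.

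Wnt proteins are secreted, lipid-modified ligands. In the canonical branch they bind a Frizzled receptor together with LRP5 or LRP6, which stops a destruction complex built on AXIN and APC from degrading beta-catenin, and beta-catenin then activates genes with a TCF/LEF factor. In the non-canonical branches, ligands such as WNT5A act through Frizzled receptors and the receptors ROR1 and ROR2 on cell polarity, movement and calcium. In breast cancer both branches have been studied for their part in invasion and in the growth of metastases.

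Levels are given as FPKM, which are fragment numbers scaled to the length of the transcript and the size of the library, so that genes can be compared. Where a pair of levels is given without names, the first is that of MDA-MB-231. The values in brackets after a level are the lower and upper bounds that the authors gave. A member was tested where its mean FPKM was at least 0.5, which 30 of the 52 members passed. Genes count as called, as higher or as lower, where (FPKM + 1) in LM2-4175 differed by at least 1.5-fold and the bounds of the cell lines did not overlap. This compares the libraries as combined and is not a test between replicates. Among all 13911 genes tested, 9.27% were called, 4.67% higher and 4.61% lower.

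Of the 30 members tested, 7 were called (23.3%). WNT5A, FZD8 and LEF1 rose in LM2-4175, and ROR1, FZD7, WNT9A and DKK1 fell. They include ligands, receptors, an antagonist and a transcription factor. The median log2 change of (FPKM + 1) was -0.09 over the members and -0.04 over all genes tested. These shares and medians describe the members and were not tested, and 4 of the members tested had under 0.5 FPKM in a cell line and passed through the other. By the 1.5-fold change alone, 5 members were higher and 6 lower, against 10.3% and 11.8% of all genes. The other 4 of these, WNT5B, RNF43, APC and AXIN2, had overlapping bounds and were not called. By the plain ratio of FPKM, FZD1, FZD3, TCF7L1, WNT10B and WNT2B also differed by more than 1.5-fold, with overlapping bounds.

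**Figure D1:**
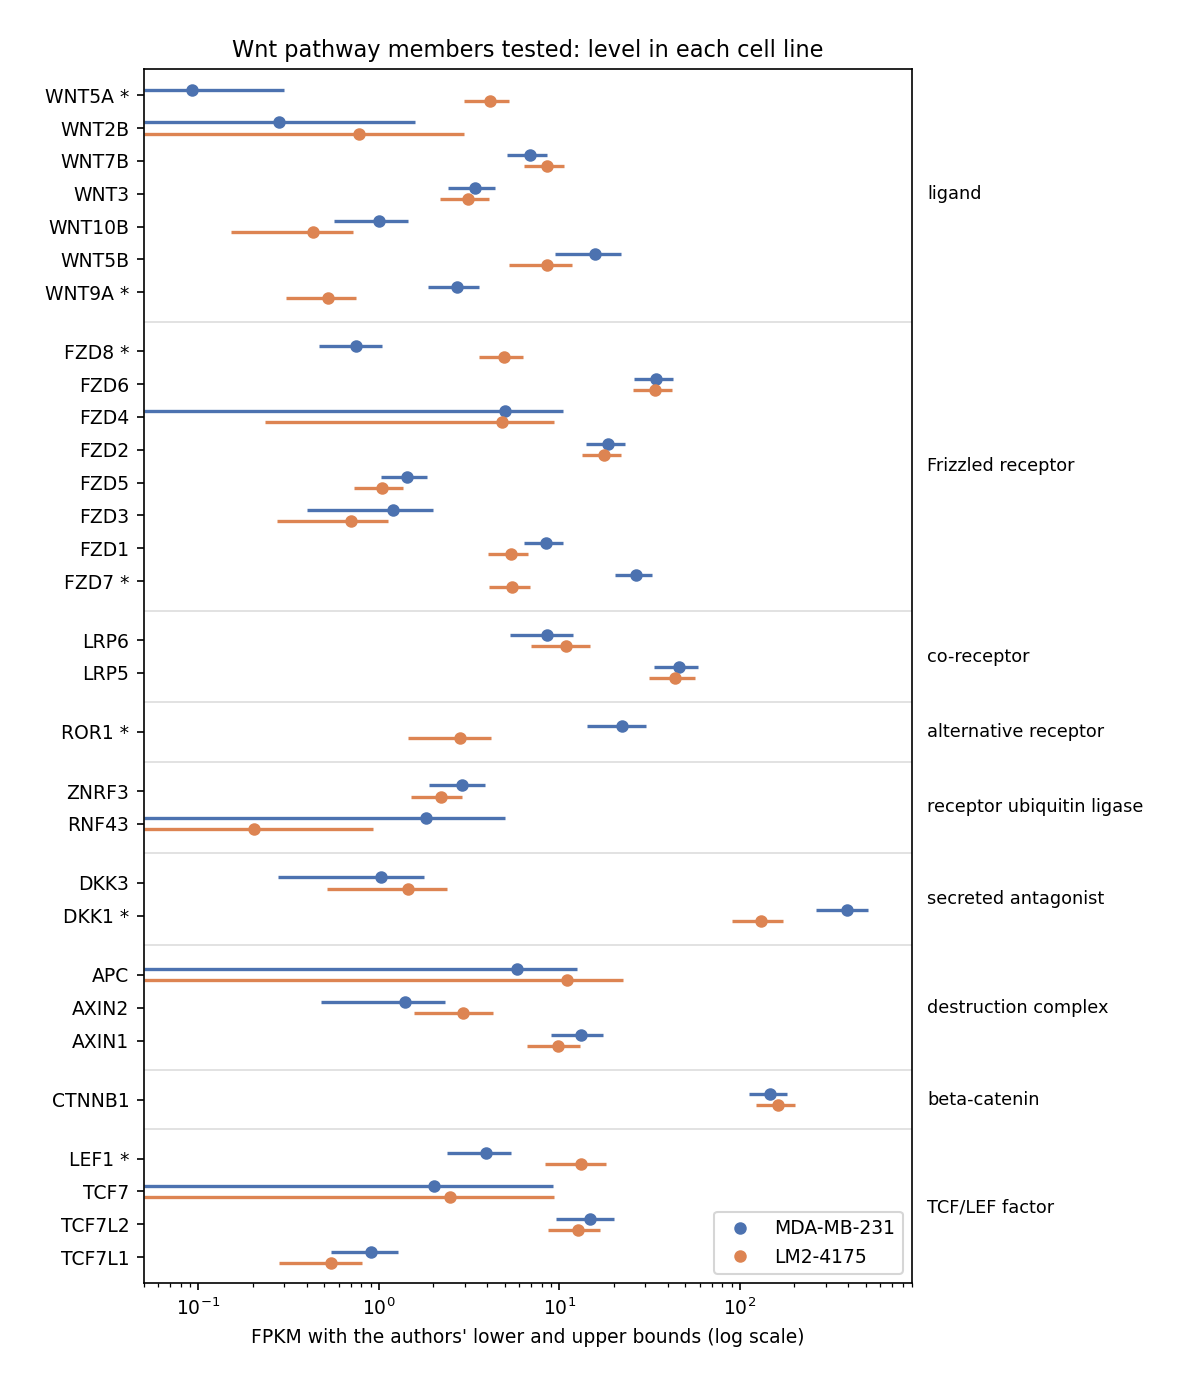
FPKM (log scale) of the 30 members tested, by role, in MDA-MB-231 (blue) and LM2-4175 (orange), with lines from the lower to the upper bound of the authors and lines with a lower bound of 0 running to the left edge. Asterisks mark the 7 genes called, whose lines do not overlap, and the broadest lines belong to TCF7, WNT2B, RNF43, APC and FZD4.

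**Figure D2:**
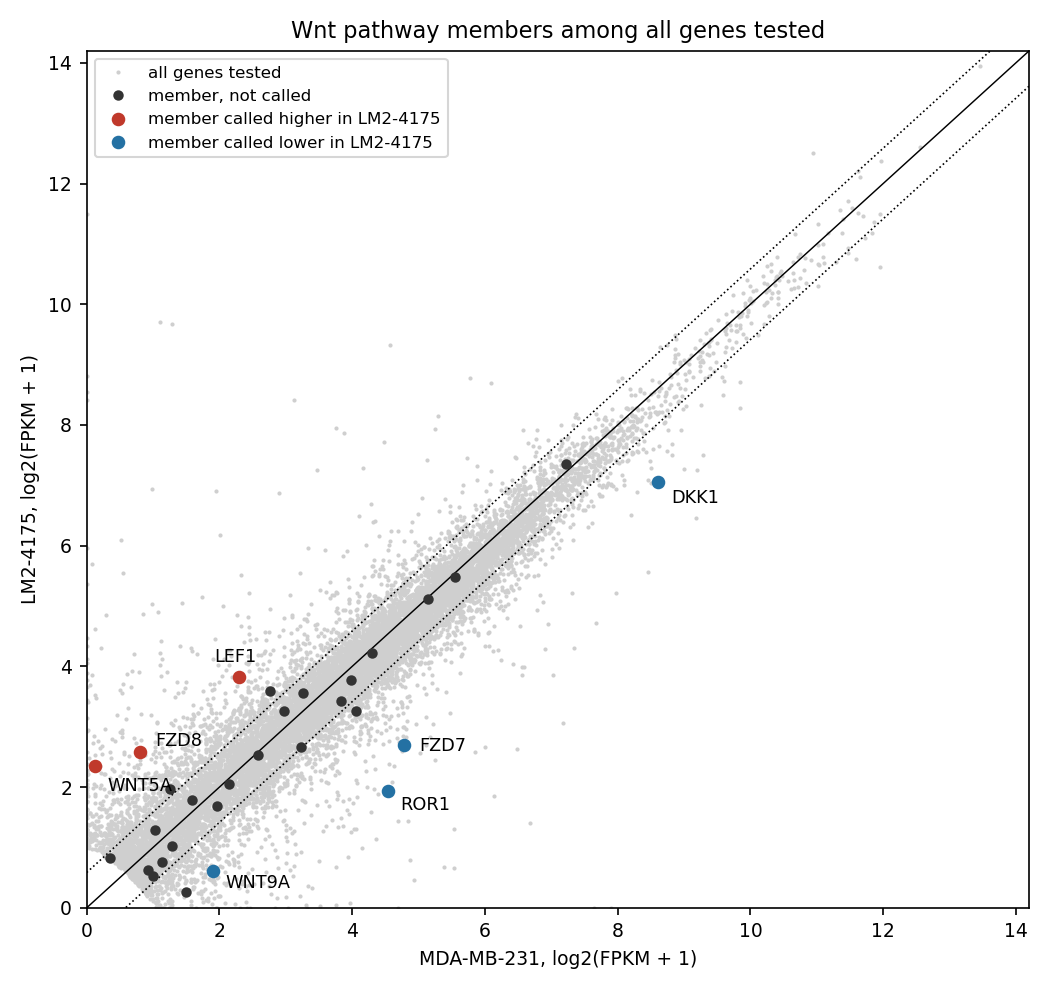
The log2(FPKM + 1) of MDA-MB-231 (horizontal axis) and LM2-4175 (vertical axis) for the 13911 genes tested (grey) and the members (black, or red and blue where called), with the line of equal levels and dotted lines at 1.5-fold. ROR1, FZD7, WNT9A and DKK1 lie below the dotted lines and WNT5A, FZD8 and LEF1 above them, while most other members are between the dotted lines.

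The marker genes of the cell lines were examined first. Of 8 mesenchymal markers, all tested, SPARC was called higher (13.6 and 231.7 FPKM) and CAV1 lower (587.3 and 151.1 FPKM). The share called was 25.0%, against 9.27% of all genes, and the median log2 change was -0.30. VIM, the mesenchymal intermediate filament, had 1355.0 and 1768 FPKM and was not called, and the receptor genes ESR1 and PGR were at or under 0.0331 FPKM in both. Of 10 luminal epithelial markers, 7 were tested. Of these, 4 were called lower in LM2-4175 (57.1%, against 4.61% of all genes), among them KRT8 and KRT19. CDH1, GATA3 and ELF3 were tested and not called. The summed level of the list was 1344 FPKM in MDA-MB-231 against 407.6 FPKM in LM2-4175. Of 7 blood cell markers, which include the haemoglobin gene HBB, 5 were under 0.5 FPKM in both cell lines, and CD3E was listed at 0. CD14 had 1.17 and 1.75 FPKM and was not called. The summed level was 108.7 and 181.0 FPKM, nearly all of it CD68. The 2 endothelial markers listed were under 0.5 FPKM in both. The part of the fall in epithelial markers in the results below was not tested. As the RNA came from whole cultures, fewer cells that express a gene and less RNA of it per cell cannot be told apart.

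Among the 19 ligand genes, 7 were tested. WNT5A, the best known ligand of the non-canonical branch, was nearly absent from MDA-MB-231 with 0.0917 FPKM (0 to 0.299) and reached 4.11 FPKM (2.96 to 5.25) in LM2-4175. The ratio was 44.8, and 9.91 between the nearest bounds, and the log2 change of (FPKM + 1) was 2.23. WNT5A passed the filter through LM2-4175 alone. WNT9A, a ligand known from joint development, went the other way, from 2.72 FPKM (1.86 to 3.58) in MDA-MB-231 to 0.525 FPKM (0.306 to 0.745) in LM2-4175. Its level was 5.18 times higher in MDA-MB-231, and 2.50 times between the nearest bounds.

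WNT5B, the close relative of WNT5A, was the highest ligand of MDA-MB-231. Its level was 15.7 FPKM (9.52 to 21.8) there and 8.54 FPKM (5.25 to 11.8) in LM2-4175, a log2 change of -0.81 with overlapping bounds, so the difference was not called. WNT7B, expressed in many epithelia, had 6.86 FPKM (5.13 to 8.60) and 8.53 FPKM (6.41 to 10.7), and WNT3, a ligand of the canonical branch, had 3.42 FPKM (2.40 to 4.43) and 3.13 FPKM (2.19 to 4.08). Neither of these passed 1.5-fold. WNT10B and WNT2B were low, with 1.01 and 0.434 FPKM for WNT10B and 0.281 and 0.778 FPKM for WNT2B. The bounds of both genes overlapped, and exons of ST7L overlap 21.5% of the exon bases of WNT2B.

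The remaining 12 ligand genes, WNT1, WNT2, WNT3A, WNT4, WNT6, WNT7A, WNT8A, WNT8B, WNT9B, WNT10A, WNT11 and WNT16, were under the filter. The summed level of the 19 genes was 30.4 FPKM for MDA-MB-231 against 26.3 FPKM for LM2-4175. WNT5B held 51.6% of this sum in MDA-MB-231 against 32.5% in LM2-4175. WNT7B held 22.6% and 32.5%, WNT9A 8.96% and 2.00%, and WNT5A 0.302% and 15.6%. Among the ligands tested, the share of WNT5A differed most in ratio. This restates its ratio of FPKM, and the gene passed the filter only through the cell line where it is high.

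**Figure D3:**
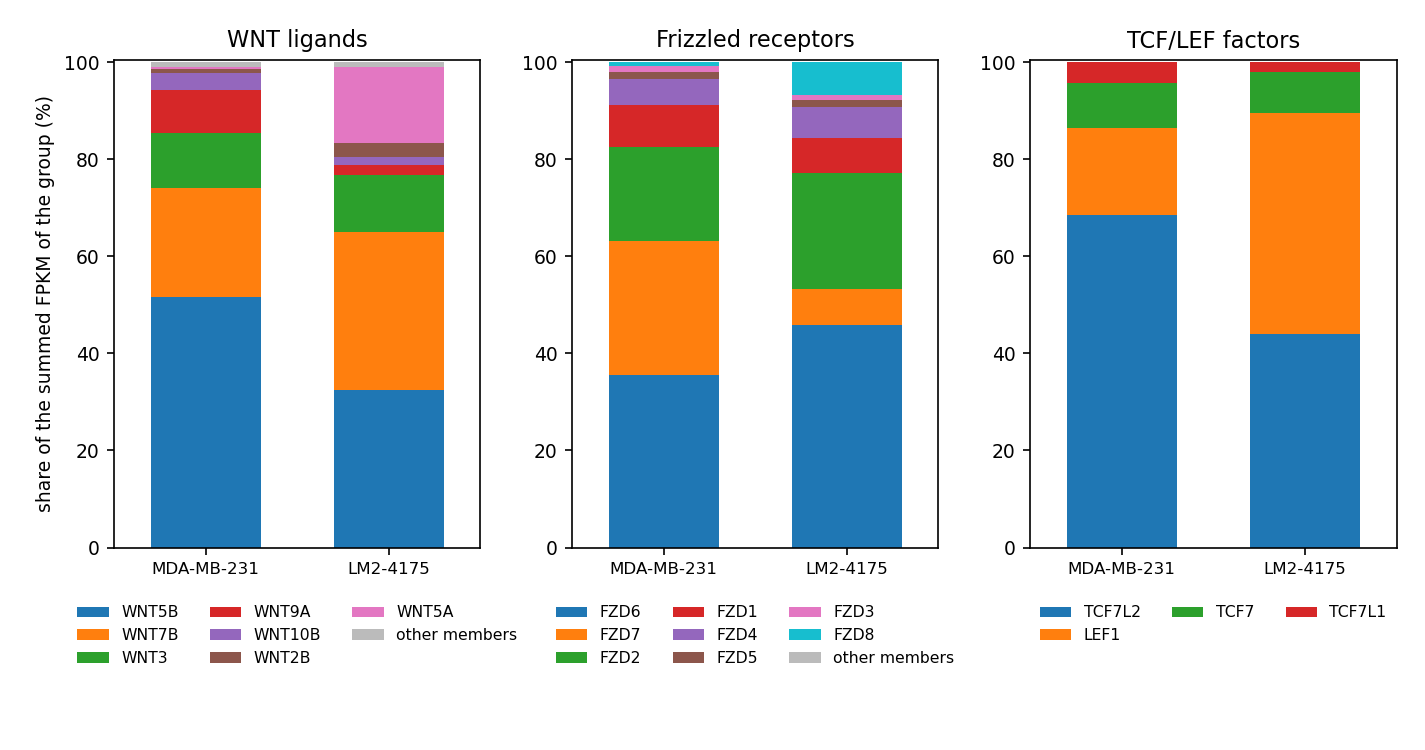
Share of the summed FPKM (%, vertical axis) that each gene holds within the WNT ligands, the Frizzled receptors and the TCF/LEF factors, for MDA-MB-231 and LM2-4175. WNT5A grows from 0.302% to 15.6% of the ligands, FZD7 shrinks from 27.6% to 7.44% of the Frizzled receptors, and LEF1 grows from 18.0% to 45.6% of the TCF/LEF factors.

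Of the 10 Frizzled genes, which encode the membrane receptors of Wnt ligands, 8 were tested. FZD7 had 26.6 FPKM (20.4 to 32.7) in MDA-MB-231 against 5.49 FPKM (4.08 to 6.90) in LM2-4175. It fell with a log2 change of -2.09 and was 4.84 times higher in MDA-MB-231 (2.96 times between the nearest bounds). FZD8 went from 0.751 FPKM (0.467 to 1.03) to 4.95 FPKM (3.61 to 6.29). This rise had a log2 change of 1.77 and a ratio of 6.598, and the ratio was 3.49 between the nearest bounds. FZD7 was the second highest Frizzled gene of MDA-MB-231 and was close to FZD1, FZD8 and FZD4 in LM2-4175.

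The other Frizzled genes kept their order. FZD6 was highest in both cell lines, with 34.3 FPKM (25.9 to 42.8) and 33.8 FPKM (25.4 to 42.1), followed in LM2-4175 by FZD2 with 17.6 FPKM (13.3 to 21.9), against 18.6 FPKM (14.1 to 23.2) in MDA-MB-231. FZD1 had 8.39 FPKM (6.36 to 10.4) in MDA-MB-231 against 5.37 FPKM (4.01 to 6.74) in LM2-4175, under 1.5-fold on the scale of FPKM + 1 (log2 change -0.56) and with overlapping bounds. FZD4 had 4.97 FPKM (0 to 10.4) and 4.80 FPKM (0.235 to 9.37), and exons of PRSS23 overlap 18.9% of its exon bases. Its change is therefore imprecise. FZD5 had 1.43 and 1.04 FPKM, and FZD3 had 1.19 and 0.699 FPKM. FZD9 and FZD10 were under the filter. In all, 7 of the 8 genes had a lower level in LM2-4175, of which FZD7 was called. The log2 changes of FZD6, FZD4 and FZD2 were only -0.02, -0.04 and -0.08, and the median of all genes tested was -0.04. Scaling both cell lines to the same sum turned FZD6 and FZD4 slightly higher in LM2-4175. The count therefore does not show a fall of the family. The summed FPKM of the Frizzled genes was 96.3 in MDA-MB-231 against 73.7 in LM2-4175, and 69.7 and 68.2 without FZD7.

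Neither co-receptor of the canonical branch was called. LRP5 had 46.0 FPKM (33.5 to 58.4) in MDA-MB-231 against 43.8 FPKM (31.2 to 56.4) in LM2-4175. LRP6 had 8.60 FPKM (5.32 to 11.9) and 10.8 FPKM (6.95 to 14.7). Between the farthest bounds, the ratio of LM2-4175 to MDA-MB-231 could lie from 0.534 to 1.68 for LRP5 and from 0.585 to 2.77 for LRP6. A change past 1.5-fold was thus not detected for either and is not shown to be absent.

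ROR1, a receptor of WNT5A of the receptor tyrosine kinase family, fell. Its level was 22.2 FPKM (14.3 to 30.1) in MDA-MB-231 against 2.83 FPKM (1.44 to 4.21) in LM2-4175. The log2 change was -2.60, and the level was 7.85 times higher in MDA-MB-231 (3.40 times between the nearest bounds). ROR2, its relative, was at 0.00806 and 0.0216 FPKM and was not tested. The ligand WNT5A and this receptor therefore had opposite patterns, with the receptor high and the ligand near 0 in MDA-MB-231 and both at a few FPKM in LM2-4175.

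The sequences around the start sites of WNT5A and ROR1 are shown because this ligand and its receptor were called in opposite directions. They are from RefSeq on GRCh38.p14 and hold 250 bases before and 50 bases after the start, on the strand of the gene. The first lies at chr3:55487257-55487556 on the minus strand and is 1 of 2 entries for WNT5A, and the second at chr1:63773767-63774066 on the plus strand. All letters are in lower case because neither holds CTTTGA, a form of the core motif of TCF/LEF factors, or its reverse complement TCAAAG.
WNT5A: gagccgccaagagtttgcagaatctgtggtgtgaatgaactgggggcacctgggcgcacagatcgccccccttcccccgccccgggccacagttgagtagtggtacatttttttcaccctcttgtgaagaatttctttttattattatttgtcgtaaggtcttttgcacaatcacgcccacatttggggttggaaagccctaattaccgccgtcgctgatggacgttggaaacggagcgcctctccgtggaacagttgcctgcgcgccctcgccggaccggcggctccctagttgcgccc
ROR1: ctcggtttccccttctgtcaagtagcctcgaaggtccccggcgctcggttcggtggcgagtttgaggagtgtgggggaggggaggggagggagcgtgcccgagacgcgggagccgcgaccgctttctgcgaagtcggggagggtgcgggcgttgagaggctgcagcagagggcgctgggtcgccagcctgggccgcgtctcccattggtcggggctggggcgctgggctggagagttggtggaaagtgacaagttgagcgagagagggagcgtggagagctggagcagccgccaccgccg

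RNF43 and ZNRF3 are membrane ubiquitin ligases that remove Frizzled receptors from the cell surface. ZNRF3 had 2.89 FPKM (1.91 to 3.87) in MDA-MB-231 against 2.20 FPKM (1.505 to 2.90) in LM2-4175 and did not pass 1.5-fold. RNF43 had 1.82 FPKM and 0.204 FPKM, a log2 change of -1.23, but its bounds of 0 to 5.00 and 0 to 0.924 overlapped and the gene was not called. Exons of other genes overlap 69.0% of the exon bases of RNF43, and the strand of the reads is not stated to have been used, so the share of these values that belongs to RNF43 is uncertain.

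Secreted antagonists bind Wnt ligands (the SFRP proteins and WIF1) or the co-receptors (DKK proteins such as DKK1). DKK1, the inhibitor of LRP5 and LRP6, was by far the most abundant of them and the highest of all members in MDA-MB-231. It fell from 391.0 FPKM (266.0 to 515.9) in MDA-MB-231 to 131.9 FPKM (91.1 to 172.7) in LM2-4175, with a log2 change of -1.56. The level was 2.96 times higher in MDA-MB-231, and 1.54 times between the nearest bounds. DKK1 ranked 217 of the 13911 genes tested by FPKM in MDA-MB-231 and 682 in LM2-4175, so the gene was still strongly expressed. It held 99.7% and 98.8% of the summed FPKM of the 9 antagonist genes.

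DKK3, placed among the antagonists by its name alone, was the other gene of this group tested. It had 1.03 FPKM (0.277 to 1.79) and 1.45 FPKM (0.516 to 2.38), and exons of USP47 overlap 47.5% of its exon bases. SFRP1, SFRP2, SFRP4, SFRP5, DKK2, DKK4 and WIF1 were under the filter in both cell lines. SFRP1, which is often silenced in breast cancer, had the highest level of all 22 members under the filter, with 0.117 FPKM (0.0435 to 0.190) in MDA-MB-231 against 0.0374 FPKM (0.000345 to 0.0744) in LM2-4175. Of the 22 members, 3 were listed at 0 in both cell lines and 4 in 1 of them. All members had a usable status, so none of these values was flagged as failed, though a listed 0 can still be a failed estimate.

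DKK1 is itself a known target of beta-catenin, and its promoter was searched on both strands for CTTTGA, a form of the core motif. The entry lies at chr10:52314031-52314330 of GRCh38.p14 on the plus strand, and capitals mark the matches, which start 149 and 95 bases before the start site.
DKK1: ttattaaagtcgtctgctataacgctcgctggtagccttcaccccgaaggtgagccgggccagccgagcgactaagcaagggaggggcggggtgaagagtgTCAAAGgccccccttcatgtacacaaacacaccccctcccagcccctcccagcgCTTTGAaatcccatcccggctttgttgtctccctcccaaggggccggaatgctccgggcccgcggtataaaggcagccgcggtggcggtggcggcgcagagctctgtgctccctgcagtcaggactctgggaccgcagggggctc
Promoter entries were found for 37 of the 52 members, 45 entries in all and 6 of the 7 genes called among them, and the entry of DKK1 was the 1 entry with the motif (2.2%). The motif was present in 12.9% of all 35116 promoter entries of this length. The entries of members were richer in G and C, with a median of 68.0% against 58.7% of all entries. A match of 6 letters is not a binding site. Other forms of the motif, such as CTTTGT, and sites farther from the start were not searched.

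Inside the cell, CTNNB1, which encodes beta-catenin, was among the most abundant transcripts. It had 147.7 FPKM (112.3 to 183.1) in MDA-MB-231 against 163.0 FPKM (122.9 to 203.1) in LM2-4175 and ranked 655 and 523 of the genes tested. The log2 change was 0.14, and the ratio between the farthest bounds could lie from 0.671 to 1.81. As beta-catenin is controlled at the level of the protein, these values say nothing of its activity.

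Of the genes of the destruction complex, none was called. AXIN1, the scaffold, had 13.2 FPKM (9.04 to 17.4) and 9.80 FPKM (6.59 to 13.0). AXIN2, its inducible relative and a widely used reporter of canonical signalling, had 1.40 FPKM (0.478 to 2.32) in MDA-MB-231 against 2.92 FPKM (1.58 to 4.27) in LM2-4175. The log2 change of AXIN2 was 0.71 and the ratio 2.09, but the bounds overlapped, and a further gene overlaps 25.3% of its exon bases. APC, the tumour suppressor of the complex, had 5.80 FPKM (0 to 12.5) and 11.1 FPKM (0 to 22.6), and its bounds allow a change in either direction.

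The TCF/LEF factors carry beta-catenin to DNA. LEF1 rose from 3.90 FPKM (2.40 to 5.41) in MDA-MB-231 to 13.2 FPKM (8.28 to 18.0) in LM2-4175, a ratio of 3.37 (1.53 between the nearest bounds) and a log2 change of 1.53. TCF7L2 was the highest factor in MDA-MB-231 with 14.9 FPKM (9.55 to 20.2) and had 12.7 FPKM (8.66 to 16.8) in LM2-4175, so that LEF1 and TCF7L2 were within each other's bounds there. TCF7 had 2.01 and 2.47 FPKM with lower bounds of 0, and TCF7L1, often a repressor, had 0.907 FPKM (0.540 to 1.27) and 0.544 FPKM (0.280 to 0.809). LEF1 held 18.0% of the summed FPKM of the 4 factors in MDA-MB-231 and 45.6% in LM2-4175. The values are sums over transcripts, and LEF1 and TCF7 also have short forms that lack the part binding beta-catenin, which were not told apart.

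The study also designed a primer pair for LEF1, which is shown because it marks the part of the gene that its PCR assay reads. Both primers matched only LEF1 among the GENCODE transcripts, without mismatch, in 13 and 12 of its 21 transcripts. They lie in exons 3 and 4 of the longest transcript that holds both, at chr4:109084766-109084788 and chr4:109010329-109010349 of GRCh37 on the minus strand, and give a product of 150 bases.
LEF1 forward: tgccaaatatgaataacgaccca
LEF1 reverse: gagaaaagtgctcgtcactgt

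The positions of the 7 genes called were spread over 5 chromosomes, as WNT9A and ROR1 share one and FZD8 and DKK1 another. On GRCh37 these are WNT5A (ENSG00000114251, chr3:55499743-55524567), FZD8 (ENSG00000177283, chr10:35927175-35931224), LEF1 (ENSG00000138795, chr4:108968701-109090112), ROR1 (ENSG00000185483, chr1:64239688-64647181), FZD7 (ENSG00000155760, chr2:202898578-202903164), WNT9A (ENSG00000143816, chr1:228106357-228135633) and DKK1 (ENSG00000107984, chr10:54074041-54077802). Exons of other genes, antisense genes for DKK1 (PRKG1-AS1) and LEF1 (LEF1-AS1), overlap 10.2% of the exon bases of DKK1, 7.9% of FZD8 and 5.2% of LEF1, and none of WNT5A, WNT9A, FZD7 or ROR1. For each of them, the neighbours tested that code for a protein and lie within 3 Mb were examined as well. The 7 neighbours of DKK1 were all higher in LM2-4175 (median log2 change 0.64), opposite to DKK1. Of the 11 neighbours of FZD8, 10 were higher (median 0.31) and none was called, and of the 18 neighbours of ROR1, 14 were lower (median -0.26), with 1 called higher and 1 called lower. The medians around FZD7, WNT9A, LEF1 and WNT5A were -0.18, -0.12, 0.08 and 0.04. The log2 change of each member called was larger in size than the median around it. This follows largely from the call rule, which selects members with a large change. Whether the changes extend over regions was not tested.

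Other genes of the pathway were taken from lists of general knowledge, with the members left out. Of 114 such genes tested, 9 were called higher and 2 lower (9.65%, against 9.27% of all genes), and their median log2 change was 0.00. None of 31 genes of the intracellular pathway, 21 nuclear cofactors and 7 further receptors was called. DVL2, an adaptor that relays the signal from Frizzled, had 50.01 and 45.1 FPKM, and the kinase gene GSK3B had 17.8 and 21.1 FPKM. NLK, a kinase that restrains TCF/LEF factors, had 8.41 FPKM (5.83 to 11.0) and 15.02 FPKM (10.9 to 19.1), with bounds that just overlapped.

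Among 6 genes of Wnt secretion and extracellular partners tested, only CTHRC1 was called (16.7%, against 9.27% of all genes). CTHRC1, a secreted protein that helps WNT5A signal through Frizzled and ROR receptors, was higher. It went from 0.527 FPKM (0.185 to 0.869) to 1.62 FPKM (0.904 to 2.34). PORCN and WLS, needed to acylate and release Wnt proteins, had 19.5 and 18.3 FPKM and 36.5 and 44.4 FPKM. Of 11 genes of planar cell polarity, the branch that orients cells, CELSR1 was called higher and DAAM1 lower (18.2%, against 9.27% of all genes). In lists this short a single gene moves the share strongly, and the shares were not tested. CELSR1, an adhesion receptor, went from 3.04 FPKM (1.75 to 4.33) to 8.33 FPKM (5.21 to 11.5). DAAM1, a formin that binds Dishevelled and acts on the actin skeleton, went from 22.6 FPKM (14.0 to 31.2) to 5.82 FPKM (3.14 to 8.49). PRICKLE1 had 10.9 and 3.78 FPKM with overlapping bounds.

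Of 21 genes of the calcium branch tested, PLCB1 and NFATC4 were called higher (9.52%, near the 9.27% of all genes). PLCB1, a phospholipase, rose from 0.0722 FPKM (0 to 0.2696) to 5.62 FPKM (2.11 to 9.14), and NFATC4, a calcium-dependent transcription factor, rose from 0.304 FPKM (0 to 0.702) to 1.67 FPKM (0.926 to 2.41). Both passed the filter through LM2-4175 alone.

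Of 18 canonical target genes tested that are not members, 5 were called higher and 1 lower (33.3%, against 9.27% of all genes), with a median log2 change of 0.20. VEGFA, the angiogenic factor, rose from 37.1 FPKM (24.3 to 49.8) to 242.8 FPKM (152.6 to 333.0), and PLAUR, the urokinase receptor, from 56.4 FPKM (42.9 to 69.9) to 101.0 FPKM (77.0 to 125.1). CLDN1, TNFRSF19 and JUN also rose, with log2 changes of 0.91, 0.64 and 0.65, and the bounds of JUN (20.7 to 32.94 and 32.96 to 52.2) were barely apart. BMP4, a growth factor of the TGF-beta family, fell from 93.3 FPKM (70.7 to 115.9) to 14.9 FPKM (10.8 to 18.9). CCND1, which encodes cyclin D1, had 146.0 FPKM (108.9 to 183.1) and 184.3 FPKM (137.2 to 231.4) and was not called. These genes answer to many other signals as well. LGR5, NKD1, NOTUM and APCDD1 were under 0.5 FPKM in both cell lines, and SP5 had 1.56 and 1.16 FPKM.

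**Figure D4:**
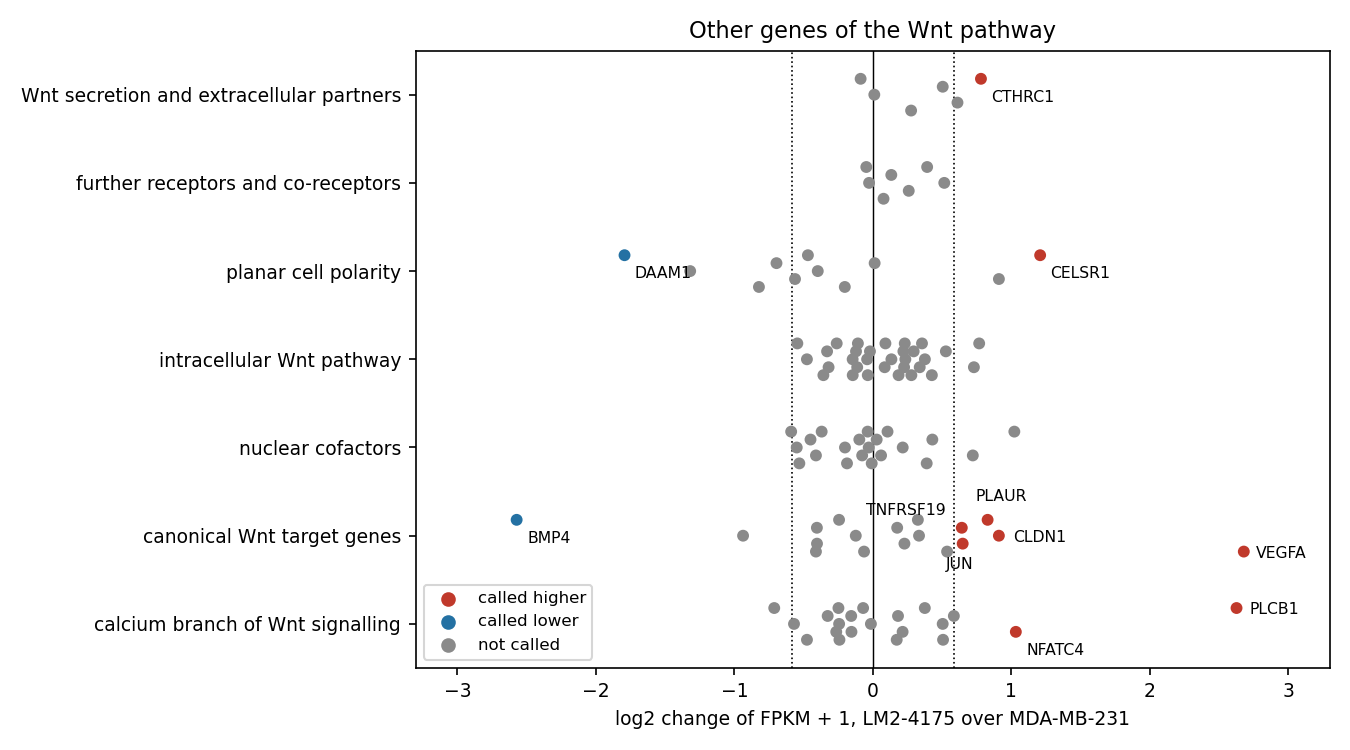
Log2 change of (FPKM + 1) from MDA-MB-231 to LM2-4175 (horizontal axis) for the genes tested of 7 further lists of the pathway, 1 point a gene, with dotted lines at 1.5-fold; a gene in more than 1 list appears in each. The points called are named, VEGFA and PLCB1 are farthest to the right and BMP4 to the left, and the lists of intracellular genes and nuclear cofactors have no gene called.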

How the data were processed

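RNA-Seq data of 2 libraries each of the cell lines MDA-MB-231 and LM2-4175 were used. Per the study's methods, paired reads were mapped to hg19 with TopHat2 and quantified with Cufflinks on GENCODE 19, and the labels name Cuffdiff. The deposited values are FPKM, 1 per gene and cell line from both libraries, with bounds and a status. The scaling of libraries, the use of strand and what spread the bounds hold are not given in the sources used here. The table holds no counts, the depth of the libraries was not used here, and the bounds give the precision. For members tested, upper bounds exceeded the FPKM by 36.8% (MDA-MB-231) and 34.4% (LM2-4175) at the median.

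All but 8 of 57815 genes had a usable status, and those with a mean FPKM of 0.5 or more were compared by the log2 ratio of FPKM + 1, which understates the change of low genes. Calls need 1.5-fold of FPKM + 1 and bounds apart. The study set 1.5-fold together with a q-value, which was not used here. No p-value was computed, as each cell line has 1 value. How often the call rule names a gene without a true difference was not tested, as the spread between libraries is not known. Every member tested is named. The members, lists and rules were chosen with earlier results of these data known. Alternatives changed the pseudocount, filter, fold, call rule and scaling. Positions and exon overlaps on either strand are from GENCODE 44 on GRCh37, the build of the files, and promoters from RefSeq on GRCh38.p14. Python 3.11.15, NumPy 2.4.6, pandas 2.3.3 and Matplotlib 3.10.9 were used.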

Additional observations from a re-analysis of the deposited data

How the results depend on the processing

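The call of each of the 7 members was kept under all 10 alternatives in which the member was tested, 67 values in all. Most of these values were fixed in advance. Only the 2-fold threshold, the scaling to the same sum and the centring on the median could have removed a call. The smaller pseudocounts, the filters and the relaxed call rules could not. With a mean FPKM of at least 5, WNT5A, FZD8 and WNT9A were not tested, which left 1 member called higher. With the 1.5-fold change alone, 5 members were called higher, and WNT5B, RNF43, APC and AXIN2 were added to the calls. With the filter at 5 FPKM, 321 of all genes and 4 further pathway genes were called higher. With a threshold of 2-fold, 403 of all genes were called lower and 4 further pathway genes higher. With the fold alone, 1434 of all genes were called higher and 1640 lower, and 16 further pathway genes higher and 8 lower. Scaling both cell lines to the same sum moved the median log2 change of all genes by 0.07 and turned the sign of 3 members that were not called. No paired analysis was possible because the libraries of each cell line are combined in 1 column, and for the same reason no library could be left out. The bounds set the limit for low genes and for APC, TCF7, FZD4, RNF43 and WNT2B, whose lower bounds reach 0 in at least 1 cell line.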
